A study of Homo sapiens with 30 samples.

Results

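The S100 calcium-binding protein family was followed through 10 genes, S100A2, S100A4, S100A6, S100A7, S100A8, S100A9, S100A10, S100A11, S100A14 and S100P, of 26255 genes in the RNA-seq table of the series. They were picked by name from a table whose values were already known, so their levels and ratios are a description and carry no test. S100 proteins are small EF-hand proteins that bind calcium and then dock onto other proteins. S100A8 and S100A9 pair to form calprotectin, a metal-binding alarmin of neutrophils that stressed or differentiating squamous epithelium also makes, while S100A10 and S100A11 bind annexins at membranes. Most of the genes sit in the epidermal differentiation complex on chromosome 1, beside genes of the cornified envelope.

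RNA-seq was performed in 4 lines made from RWPE1, an immortalised prostate epithelial line with basal features that does not form tumors by itself. RWPE1-ERG cells expressed FLAG-tagged ERG, the ETS transcription factor that the TMPRSS2 fusion turns on in prostate cancer, from the retroviral vector pQCXIH. RWPE1-mAKT cells expressed myristoylated AKT (mAKT), a constitutively active form of the PI3K effector kinase, RWPE1-ERG/mAKT cells expressed both, and RWPE1-vector cells carried vector alone, with pBABE-puro as the vector control for mAKT. The lines model the joint action of an ETS fusion and active PI3K/AKT signaling, in cultured cells with retroviral transgenes and not in tumor tissue. The chromatin profiles used here were 1 library per line. ATAC-seq was read in the 3 lines with a transgene, and that of RWPE1-vector was not analysed here. ERG ChIP-seq was read in RWPE1-ERG/mAKT and in DMSO-treated VCaP, a prostate cancer line with TMPRSS2/ERG. ERK2 ChIP-seq was read in RWPE1-vector and RWPE1-ERG. H3K27me3 ChIP-seq was read in those lines and in RWPE1-ERG S96E, whose ERG mimics phosphorylation at serine 96 by ERK.

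Expression is given as FPKM, fragments scaled by transcript length and by the number of mapped fragments. The authors deposited 1 pooled FPKM per line, made from 3 libraries, so no spread between replicates could be computed and every difference below has no replicate check. The transgenes matched the line names. ERG stood at 0.264 FPKM in RWPE1-vector, 358 in RWPE1-ERG, 0.435 in RWPE1-mAKT and 328 in RWPE1-ERG/mAKT, and AKT1 at 58.7, 64.2, 156 and 281 FPKM in the same order. Of 8 housekeeping genes, 0 were listed at 0 in any line. The sum of FPKM over all genes was 1.47 times as high in RWPE1-ERG as in RWPE1-vector, and 1.15 and 1.13 times in RWPE1-mAKT and RWPE1-ERG/mAKT. All 5 basal markers (KRT5, KRT14, KRT15, TP63, ITGB4) were present in every line, at 21.3 to 3642 FPKM, and so were the luminal keratins KRT8, KRT18 and KRT19, while the luminal secretory gene KLK3 was listed at 0.

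The promoters of the 4 members whose level differed past 2-fold between lines are shown here, since the chromatin results turn on them. Each is the 250 bases before a start site, from RefSeq on GRCh38.p14, and each matched the GRCh37 (hg19) genome of the peak lists once. Capitals mark the ETS words, which are AGGAAA and its variant AGGAAG as well as CGGAAA and its variant CGGAAG, and the TATA box word TATAAA, on either strand.
S100A7 promoter: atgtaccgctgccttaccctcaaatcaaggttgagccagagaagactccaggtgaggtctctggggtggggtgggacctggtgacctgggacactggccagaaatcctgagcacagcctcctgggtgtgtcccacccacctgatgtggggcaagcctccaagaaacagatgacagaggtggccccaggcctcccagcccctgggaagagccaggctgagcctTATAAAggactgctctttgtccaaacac
S100A8 promoter: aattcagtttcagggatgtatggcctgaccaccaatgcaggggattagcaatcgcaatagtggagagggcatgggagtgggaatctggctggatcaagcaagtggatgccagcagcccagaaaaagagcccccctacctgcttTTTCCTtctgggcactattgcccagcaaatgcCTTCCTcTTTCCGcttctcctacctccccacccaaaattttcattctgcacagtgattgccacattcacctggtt
S100A9 promoter: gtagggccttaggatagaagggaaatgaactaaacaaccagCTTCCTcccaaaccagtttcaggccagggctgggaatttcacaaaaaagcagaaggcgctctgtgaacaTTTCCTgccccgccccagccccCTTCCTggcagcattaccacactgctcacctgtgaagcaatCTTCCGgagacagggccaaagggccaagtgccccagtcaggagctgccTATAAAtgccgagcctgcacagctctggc
S100P promoter: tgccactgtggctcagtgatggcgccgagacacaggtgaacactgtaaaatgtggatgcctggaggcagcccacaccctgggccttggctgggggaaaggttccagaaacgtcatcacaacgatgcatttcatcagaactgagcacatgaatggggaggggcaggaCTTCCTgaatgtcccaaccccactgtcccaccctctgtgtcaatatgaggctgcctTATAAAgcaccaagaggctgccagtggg
These runs lie at chr1:153433128-153433377 on the minus strand, chr1:153363665-153363914 on the minus strand, chr1:153330080-153330329 on the plus strand and chr4:6695355-6695604 on the plus strand. S100A9 held 4 of the ETS words, and its TATAAA began 29 bases before the start site. S100A8 held 3 ETS words before the start used here, and a TATAAA lay 29 bases before a second start site 115 bases further into the gene. S100A7 and S100P each had TATAAA 28 bases before the start, with 0 and 1 ETS words. Over the 13 RefSeq promoters of the 10 members, 8 held an ETS word, beside 58.6% of all 35116 promoters, and 6 held TATAAA, beside 10.7%. TGACTCA or TGAGTCA, the AP-1 sequence, was in 1 of 13, that of S100A2, beside 4.2% of all promoters. A match describes these letters and no binding.

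Levels of the 10 members ran from 0 to 6420 FPKM. S100A2, a p63-responsive S100 of basal epithelium, was the highest member in every line, at 4207 FPKM in RWPE1-vector, 4523 in RWPE1-ERG, 6420 in RWPE1-mAKT and 4630 in RWPE1-ERG/mAKT. It ranked 17th, 40th, 11th and 23rd of all 26255 genes in those lines and made up 45.7 to 54.8% of the summed FPKM of the members. S100A6 and S100A11 followed at 1693 to 2343 and 1407 to 1992 FPKM, then S100A14 and S100A10 at 578 to 903 and 397 to 595 FPKM. S100A4, S100P and S100A7 never exceeded 7.02 FPKM. Together the members held 1.06% of all FPKM in RWPE1-vector, 0.759% in RWPE1-ERG, 1.21% in RWPE1-mAKT and 1.06% in RWPE1-ERG/mAKT.

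**Figure D1:**
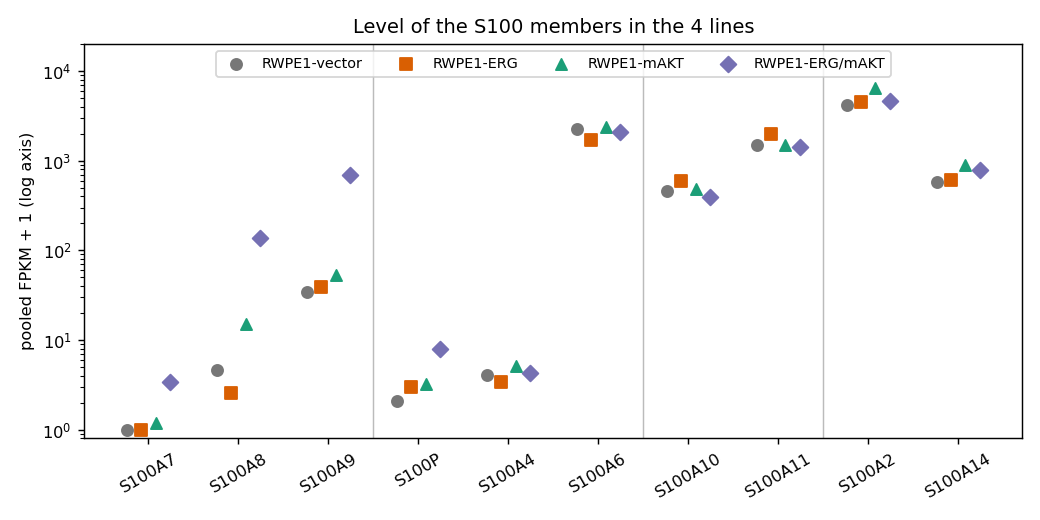
Pooled FPKM + 1 (log axis) of the 10 S100 members, 1 point per line, with vertical lines between the alarmins, the motility-linked members, the annexin partners and the epithelial members. S100A8 and S100A9 spread over 85.6-fold and 21.0-fold between the lowest and the highest line, with RWPE1-ERG/mAKT highest, while S100A6, S100A10, S100A11, S100A2 and S100A14 stay within 1.56-fold.

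S100A8, the smaller subunit of calprotectin, showed the widest fold range among the members above 0 in every line. It stood at 3.64 FPKM in RWPE1-vector, 1.60 in RWPE1-ERG, 13.9 in RWPE1-mAKT and 137 in RWPE1-ERG/mAKT. ERG without mAKT went with the lowest value of the 4 lines, mAKT without ERG with an intermediate one, and both together with the highest. On the log2(FPKM + 1) scale, S100A8 in RWPE1-ERG/mAKT was higher by 5.73 than in RWPE1-ERG, by 3.21 than in RWPE1-mAKT and by 4.89 than in RWPE1-vector. RWPE1-mAKT was higher than RWPE1-vector by 1.69, and RWPE1-ERG over RWPE1-vector was -0.84, which is within 2-fold with this pseudocount and past 2-fold without it.

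S100A9, the larger subunit, was already present in control cells. Its FPKM was 33.0 in RWPE1-vector, 38.4 in RWPE1-ERG, 51.6 in RWPE1-mAKT and 691 in RWPE1-ERG/mAKT. The 3 lines with at most 1 transgene lay close to each other and far below the line with both. The difference on the log2 scale was 4.14 over RWPE1-ERG, 3.72 over RWPE1-mAKT and 4.35 over RWPE1-vector, and S100A9 moved from rank 2869 in RWPE1-vector to rank 201 in RWPE1-ERG/mAKT. The FPKM of S100A9 over that of S100A8 was 9.06 in RWPE1-vector, 24.0 in RWPE1-ERG, 3.70 in RWPE1-mAKT and 5.05 in RWPE1-ERG/mAKT, so the subunit transcripts did not keep a fixed proportion.

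S100A7 (psoriasin), an antimicrobial S100 of squamous epithelium, was listed at 0 in RWPE1-vector and RWPE1-ERG, at 0.192 FPKM in RWPE1-mAKT and at 2.43 in RWPE1-ERG/mAKT. It passed the minimum of 1 FPKM through RWPE1-ERG/mAKT alone, so it had to differ, and no fold is given against the lines at 0. Against RWPE1-mAKT the log2 difference was 1.53, and in the other comparisons it counts as past 2-fold through FPKM + 1. S100A7, S100A8 and S100A9 summed to 0.407, 0.423 and 0.561% of the members' FPKM in the vector, ERG and mAKT lines, and to 8.19% in RWPE1-ERG/mAKT.

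Neutrophils and monocytes hold large amounts of S100A8 and S100A9, so 8 myeloid markers were read beside them. PTPRC, ITGAM, MPO and FCGR3A were at or near 0 in all 4 lines, the highest value being 0.0290 FPKM for ITGAM in RWPE1-ERG. Only CD68, a lysosomal protein that is not restricted to myeloid cells, was above 1 FPKM in every line, at 24.3 to 28.9, with CD14 at 1.09 FPKM in RWPE1-ERG/mAKT. The summed myeloid list was 26.1 FPKM in RWPE1-ERG/mAKT and 29.0 to 30.3 in the other lines, and CD68 made up most of it. Without CD68, the other 7 markers summed to 1.38 FPKM in RWPE1-vector, 1.46 in RWPE1-ERG, 1.46 in RWPE1-mAKT and 1.86 in RWPE1-ERG/mAKT. That sum was highest where S100A8 and S100A9 were highest, and so was CD14, at 0.764, 0.505, 0.628 and 1.09 FPKM in the same order. LYZ was highest in RWPE1-ERG, where S100A8 was lowest, at 0.592 FPKM against 0.419 in RWPE1-ERG/mAKT. The part of the myeloid markers in the S100A8 and S100A9 values was not tested. Fibroblast markers above 1 FPKM were limited to COL1A1 and 0 of 5 endothelial markers reached it. In bulk RNA, more cells that make a transcript and more transcript per cell cannot be told apart.

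Epithelial identity genes also differed between the lines, and their part in the S100 values was not tested. KRT5, a basal keratin, was at 3126 FPKM in RWPE1-vector, 1170 in RWPE1-ERG, 3642 in RWPE1-mAKT and 3519 in RWPE1-ERG/mAKT. KRT15, a keratin of basal progenitors, was at 33.3, 80.3, 53.8 and 280 FPKM in that order and was thus highest with both transgenes, while KRT14 was at 2936, 699.5, 2527 and 1185 FPKM and ITGB4 at 379, 283, 339 and 186 FPKM, both lower with both transgenes than in vector. TP63, the basal p63 factor, ranged from 21.3 FPKM in RWPE1-ERG to 39.2 in RWPE1-mAKT. Of the 5 basal markers, 1 was 2-fold higher and 2 were 2-fold lower in RWPE1-ERG/mAKT over RWPE1-vector. Over all genes of at least 1 FPKM the shares were 2.92% and 1.07%. KRT8, a luminal keratin, was at 622, 1769, 671 and 921 FPKM, highest with ERG alone.

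S100P, S100A4 and S100A6 are S100 proteins linked to cell motility, and of these S100P alone differed past 2-fold. Its FPKM was 1.12 in RWPE1-vector, 2.00 in RWPE1-ERG, 2.23 in RWPE1-mAKT and 7.02 in RWPE1-ERG/mAKT. Each transgene alone gave a slightly higher value than vector and both together the highest, with log2 differences of 1.42 over RWPE1-ERG, 1.31 over RWPE1-mAKT and 1.92 over RWPE1-vector. S100A4, often used as a mark of mesenchymal and metastatic cells, was low throughout, at 3.08, 2.42, 4.16 and 3.33 FPKM in the order vector, ERG, mAKT and ERG/mAKT. S100A6 (calcyclin) was at 2231, 1693, 2343 and 2085 FPKM in the same order. Both were lowest in RWPE1-ERG, by 1.72-fold and 1.38-fold against the highest line.

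S100A10, the p11 subunit that joins a pair of annexin A2 molecules into the plasminogen-binding tetramer, was at 461 FPKM in RWPE1-vector, 595 in RWPE1-ERG, 480 in RWPE1-mAKT and 397 in RWPE1-ERG/mAKT. S100A11, which binds annexin A1 and annexin A2, was at 1476, 1992, 1491 and 1407 FPKM. Both members were highest in RWPE1-ERG and lowest in RWPE1-ERG/mAKT, with log2 differences of -0.58 and -0.50 between those lines, within 2-fold. With FPKM scaled to the same sum in each line, both were highest in RWPE1-vector instead. S100A10 was then at 461 against 404 in RWPE1-ERG and S100A11 at 1476 against 1353. That scaling set the median log2 ratio of all genes for RWPE1-ERG over RWPE1-vector at -0.48. ANXA2 itself was at 2413, 3377, 2556 and 2054 FPKM, which is the same order of lines. S100A14, an S100 of epithelial cells, was at 578, 606, 903 and 781 FPKM, and like S100A2 it was highest in RWPE1-mAKT, by a log2 difference of 0.64 over RWPE1-vector beside 0.61 for S100A2.

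**Figure D2:**
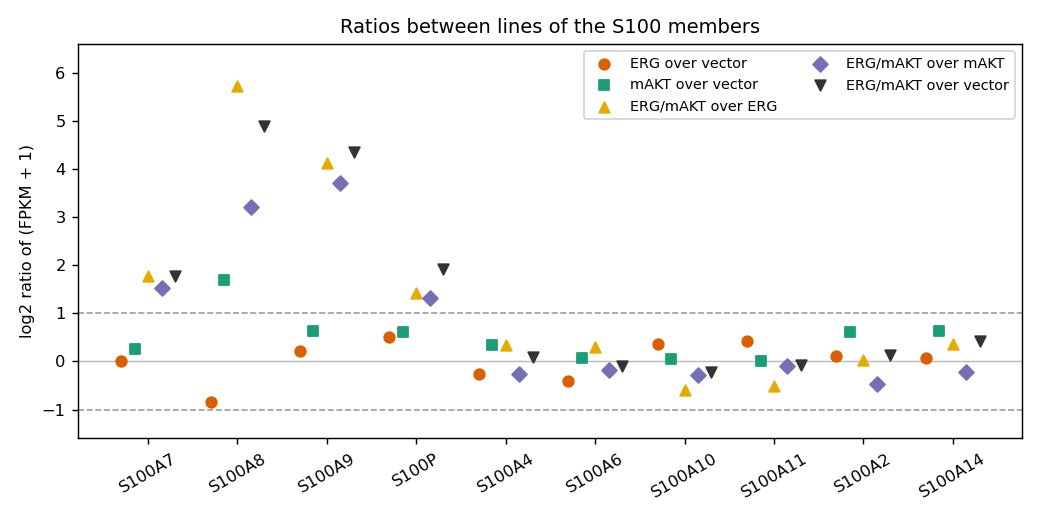
Log2 ratios of (FPKM + 1) between lines for the 10 members, 1 point per comparison, with dashed lines at a 2-fold difference. The points of S100A7, S100A8, S100A9 and S100P for RWPE1-ERG/mAKT over each other line lie above 1, up to 5.73, and 6 members have all their points within 2-fold.

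The comparison of RWPE1-ERG with RWPE1-vector asks what ERG does without added AKT activity. Of 10 members, 0 were past 2-fold in either direction, where 3.58% of the 12670 genes of at least 1 FPKM in any line were 2-fold higher and 0.971% were 2-fold lower. The members had a median log2 ratio of 0.09, beside -0.01 for all genes of at least 1 FPKM. With mAKT alone over vector, 1 member (S100A8) was 2-fold higher and 0 were lower, beside 1.14% and 0.813% of genes, and the median was 0.47, beside 0.02.

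The comparisons that end in RWPE1-ERG/mAKT ask what each component adds to the other. When mAKT was added to ERG, 4 members were 2-fold higher and 0 lower, beside 2.02% and 2.47% of genes, with a median log2 ratio of 0.35. When ERG was added to mAKT, 4 were higher and 0 lower, beside 2.03% and 0.868% of genes, and the median was -0.13. For both over vector, 4 were higher and 0 lower, beside 2.92% and 1.07% of genes, and the median was 0.29. The 4 members were S100A7, S100A8, S100A9 and S100P in each case. These 3 comparisons share the RWPE1-ERG/mAKT value, and the members were named with these values in view, so nothing is read from the counts. AKT1 was also higher in RWPE1-ERG/mAKT than in RWPE1-mAKT, at 281 against 156 FPKM. ERG and the AKT1 level therefore cannot be told apart between those lines.

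The effect of ERG was set out without and with mAKT. S100A9 had log2 ratios of 0.21 for RWPE1-ERG over RWPE1-vector and 3.72 for RWPE1-ERG/mAKT over RWPE1-mAKT, a difference of 3.51. For S100A8 the ratios were -0.84 and 3.21, which differ by 4.04 and are opposite in sign. S100P had 0.50 and 1.31. S100A10, S100A11 and S100A2 had positive ratios without mAKT, of 0.37, 0.43 and 0.10, and negative ones with it, of -0.27, -0.08 and -0.47, all within 2-fold. That contrast of signs was lost with FPKM scaled to the same sum in each line. There the ratios of S100A10, S100A11 and S100A2 without mAKT were -0.19, -0.13 and -0.45. The S100A9 ratio without mAKT also turned, to -0.33, and the one with mAKT was 3.73. That scaling set the median ratio of all genes without mAKT at -0.48, against -0.01 unscaled. With unscaled ratios centred on the median, the contrast of S100A10, S100A11 and S100A2 stayed. Those ratios were 0.38, 0.44 and 0.11 without mAKT and -0.21, -0.01 and -0.40 with it. Over all genes of at least 1 FPKM, the difference was above 2-fold upward for 1.71% and downward for 2.63%. With 1 pooled value per line the differences could not be tested. The ratios with mAKT also carry the higher AKT1 of RWPE1-ERG/mAKT, at 281 FPKM against 156 in RWPE1-mAKT.

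**Figure D3:**
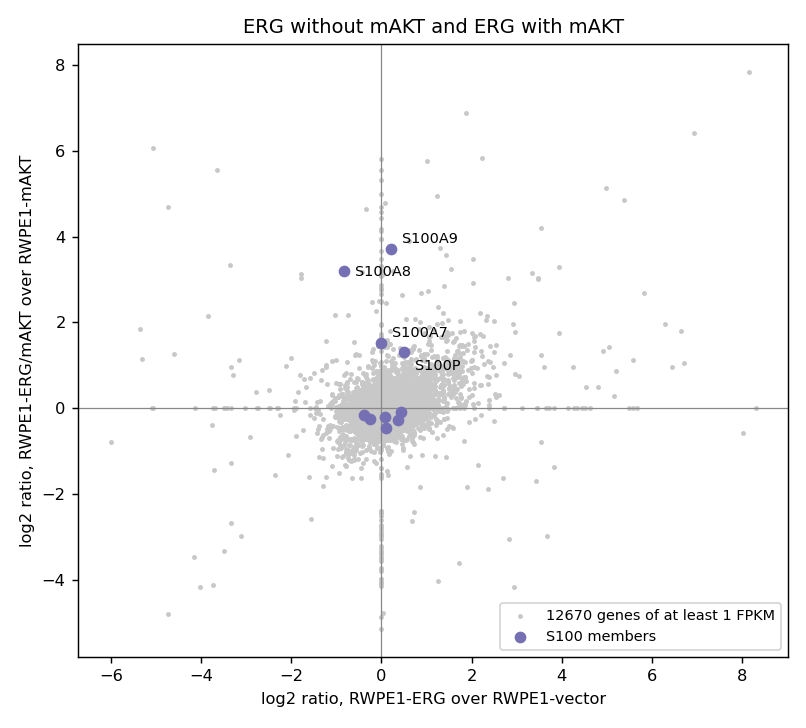
Log2 ratio of (FPKM + 1) for RWPE1-ERG over RWPE1-vector (horizontal axis) against RWPE1-ERG/mAKT over RWPE1-mAKT (vertical axis), with the 12670 genes of at least 1 FPKM in grey and the members in colour. S100A8 lies at -0.84 and 3.21 and S100A9 at 0.21 and 3.72, while the 6 members within 2-fold in every comparison lie within 0.5 of 0 on both axes.

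The further S100 genes were read in the same comparisons. Of 12 further S100-named genes in the table, 5 reached 1 FPKM in any line. Of these, 0 were past 2-fold in any of the 5 comparisons. Over all genes of at least 1 FPKM, 0.813% to 3.58% were past 2-fold per comparison and direction, so nothing is read from that count. S100A16, which neighbours S100A14, was at 572, 527, 597 and 473 FPKM in the order vector, ERG, mAKT and ERG/mAKT, and S100A13, a partner in release of FGF1, at 128, 133, 162 and 104 FPKM. S100A3 was at 8.96 to 10.1 FPKM, S100A1 at 1.66 to 2.04 FPKM and S100PBP, a binding protein of S100P and no S100 protein, at 6.42 to 9.03 FPKM. S100A12, calgranulin C, which lies between S100A9 and S100A8, was listed at 0 in RWPE1-ERG and RWPE1-mAKT and at 0.233 FPKM in RWPE1-ERG/mAKT. S100A7A, S100A7L2, S100B, S100G and S100Z were listed at 0 in every line. The table gives S100A3 the same locus as S100A4, so reads that the genes share may have been divided between them.

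The fused-type S100 genes, which join an S100 domain to the repeats of a cornified envelope protein, did not reach 1 FPKM in any line. Cornulin (CRNN) was at 0.361 FPKM in RWPE1-mAKT and 0.768 in RWPE1-ERG/mAKT and was listed at 0 in the other lines, and filaggrin (FLG) did not exceed 0.0393 FPKM.

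The 14 partners and receptors of S100 proteins read here all reached 1 FPKM in some line. In RWPE1-ERG over RWPE1-vector 1 of them was 2-fold higher, beside 3.58% of all genes of at least 1 FPKM. In RWPE1-ERG/mAKT over RWPE1-ERG 2 were 2-fold lower, beside 2.47%. TLR4, a receptor for calprotectin, was at 0.537 FPKM in RWPE1-vector, 2.22 in RWPE1-ERG, 0.288 in RWPE1-mAKT and 0.468 in RWPE1-ERG/mAKT. It was thus highest in the line where S100A8 was lowest. ANXA6, an annexin that binds several S100 proteins, was at 19.2, 36.3, 18.7 and 17.0 FPKM. AGER, the receptor RAGE, stayed at 1.83 to 2.41 FPKM and basigin (BSG), another S100A9 receptor, at 441 to 489 FPKM. ANXA1, with 424, 618, 452 and 533 FPKM, was within 2-fold.

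Chromatin was read in a window of 20 kb on either side of each locus, as the RNA-seq table gives it. On chromosome 1, 9 members lie within 1.63 Mb, S100A9 and S100A8 are 29.0 kb apart and S100A6, S100A4 and S100A2 are 7.38 and 9.34 kb apart, so neighbours share peaks. Each list is 1 library, and the lists differ in read depth and in length. The deeper library did not always hold more peaks. ERK2 ChIP-seq had 8393459 reads and 41276 peaks in RWPE1-vector, and 15020233 reads and 5721 peaks in RWPE1-ERG. No difference between lists below has a replicate check.

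Open chromatin was measured by ATAC-seq. All 10 members had an ATAC peak in the window in RWPE1-ERG, beside 89.3% of all genes, and 9 did in RWPE1-mAKT and in RWPE1-ERG/mAKT, beside 88.2% and 84.0%. The exception was S100A7, with 1 peak in RWPE1-ERG, 234 bp wide and 3.90-fold enriched, and none in the other lines. Merged over the lists, the windows held 39 open sites, of which 28 were open in all 3 lines, 4 in a pair of lines and 7 in 1 line. Of those 7, 5 were in RWPE1-ERG, 2 in RWPE1-mAKT and 0 in RWPE1-ERG/mAKT, whose list is the shortest at 42081 peaks, against 63354 and 57999.

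A peak spanned the 5′ end of the locus for 7 members in RWPE1-ERG and in RWPE1-mAKT and for 6 in RWPE1-ERG/mAKT, beside 48.3%, 47.1% and 43.4% of all genes and 75.1%, 74.0% and 70.1% of genes of at least 1 FPKM. The difference was S100A8. Its start was open in RWPE1-ERG (chr1:153363360-153363692, 3.81-fold enriched) and RWPE1-mAKT (chr1:153363362-153363720, 4.29-fold), and no peak there was in the RWPE1-ERG/mAKT list, although the transcript was highest in that line. The S100A8 peaks ranked 40527th and 32554th by p-value in their lists. At S100A9 the start was open in all 3 lines, by 7.15-fold in RWPE1-ERG, 3.90-fold in RWPE1-mAKT and 6.11-fold in RWPE1-ERG/mAKT. S100P had no peak at its start in any list, and a site 1.91 kb inside the locus was open in RWPE1-ERG and RWPE1-mAKT and not listed in RWPE1-ERG/mAKT.

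ERG binding in RWPE1-ERG/mAKT fell in the windows of 2 members, S100A9 and S100A11, beside 30.5% of all genes. S100A9 had 3 ERG peaks and S100A11 had 1. The S100A9 peak with the highest enrichment, chr1:153330160-153330380, spans the S100A9 start site, was 4.94-fold enriched over input (q-value 0.0306) and covered 170 of the 250 bases of the promoter printed above, including 3 of its 4 ETS words and the TATAAA. It overlapped the open site at the start in all 3 lines, by 188 bp or more of its 221 bp. A weaker peak lay 593 bp upstream, 2.94-fold enriched, and another 7.84 kb downstream of the start, 3.53-fold enriched, with q-values of 1.0 and 0.701. The S100A11 peak, chr1:152020421-152020961, was 5.65-fold enriched (q-value 0.00311). It lies 10.9 kb upstream of the locus in the RNA-seq table and 38 bp upstream of the furthest S100A11 start in GENCODE. ATAC peaks covered it fully in all 3 lines, by 7.50 to 9.15-fold, and ERK2 peaks overlapped it in RWPE1-vector and RWPE1-ERG, at 3.08 and 3.13-fold enrichment and q-values of 0.892 and 1.0.

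The upstream and downstream S100A9 peaks and the 300 bases around the S100A11 summit are given on the plus strand of GRCh37. They come from the listed ERG peaks that lie outside the printed promoters. The S100A9 peaks among them had q-values of 0.701 or above, so ERG binding there is uncertain. Capitals mark the ETS words and TGACTCA or TGAGTCA.
S100A9 upstream ERG peak: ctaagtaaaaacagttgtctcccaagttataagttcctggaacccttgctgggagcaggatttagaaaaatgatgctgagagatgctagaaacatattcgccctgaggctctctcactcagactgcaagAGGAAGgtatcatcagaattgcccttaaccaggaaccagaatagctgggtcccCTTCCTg
S100A9 downstream ERG peak: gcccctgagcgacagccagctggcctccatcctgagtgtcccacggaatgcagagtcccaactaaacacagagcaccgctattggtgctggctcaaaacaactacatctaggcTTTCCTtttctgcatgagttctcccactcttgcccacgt
S100A11 ERG peak: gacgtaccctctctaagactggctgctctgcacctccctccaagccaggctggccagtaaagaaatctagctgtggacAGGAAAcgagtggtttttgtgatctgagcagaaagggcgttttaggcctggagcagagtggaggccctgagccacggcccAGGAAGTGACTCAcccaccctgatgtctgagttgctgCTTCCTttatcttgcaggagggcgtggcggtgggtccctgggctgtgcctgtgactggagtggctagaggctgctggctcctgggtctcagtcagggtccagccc
They span chr1:153329549-153329737, chr1:153338172-153338323 and chr1:152020577-152020876. In the S100A11 peak AGGAAG ran directly into TGACTCA, a joined ETS and AP-1 sequence, and lay 8 bp from the summit. Within 100 bases of the summit, the 4 ERG peaks near members each held at least 1 ETS word, as did 51.5% of all 9113 ERG peaks, and 1 held the AP-1 sequence, as did 8.45%.

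In VCaP, where ERG comes from the cell's own gene fusion, 1 member had an ERG peak in the window, S100A11, beside 21.4% of all genes. That peak, chr1:151989112-151989324, was 2.95-fold enriched, lay 20.2 kb downstream of the start of the locus and did not overlap the RWPE1-ERG/mAKT peak. Near S100A8, S100A7 and S100P neither list held an ERG peak.

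**Figure D4:**
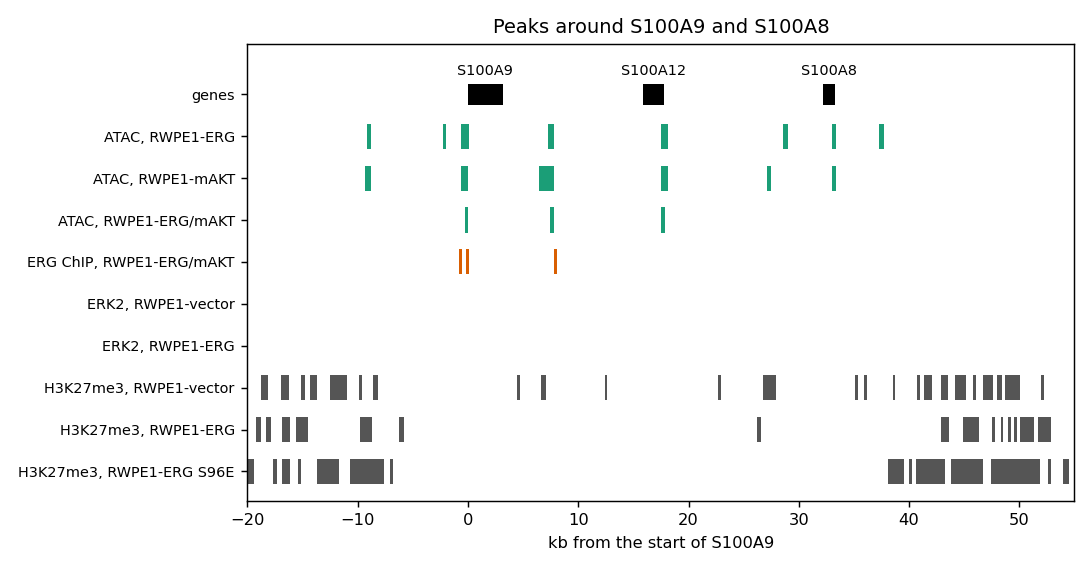
Peaks from 20 kb before to 55 kb after the start of S100A9 (horizontal axis, in kb), 1 row per list and library, with the genes on top. ATAC peaks and the ERG peak meet at 0 kb, the S100A8 start carries ATAC peaks in RWPE1-ERG and RWPE1-mAKT and none in RWPE1-ERG/mAKT, and the ERK2 rows are empty.

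ERK2 was read because ERG can recruit this kinase to chromatin. ERK2 peaks lay near 7 members in RWPE1-vector and 5 in RWPE1-ERG, beside 69.0% and 24.5% of all genes. Among genes of at least 100 FPKM in any line the shares were 81.3% and 53.8%. In RWPE1-ERG the peaks counted for S100A4 were the same as those of S100A2. None lay near S100A8, S100A9 or S100P in either line. The most enriched were at the S100A2 start, where a peak spanned it in both lines, 5.54-fold enriched in RWPE1-vector (q-value 0.00194) and 5.65-fold in RWPE1-ERG (q-value 0.000794), each overlapping an ATAC site of more than 3 kb in all 3 ATAC lists. S100A10 had a peak 779 bp inside the locus in RWPE1-ERG, 4.86-fold enriched (q-value 0.0302), with no overlapping peak in RWPE1-vector. The RWPE1-vector list holds 41276 peaks and the RWPE1-ERG list 5721.

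H3K27me3, the repressive mark set by polycomb repressive complex 2, covered more of the alarmin windows than of the other members' windows. At least 1 marked region lay near 10 members in RWPE1-vector, 6 in RWPE1-ERG and 5 in RWPE1-ERG S96E, beside 97.0%, 73.4% and 77.9% of all genes. Marked regions covered 8.49 kb of the S100A7 window in RWPE1-vector, 6.62 kb in RWPE1-ERG and 21.0 kb in RWPE1-ERG S96E, or 19.8, 15.4 and 48.8% of it. For S100A8 they covered 19.4, 14.3 and 29.6%, and for S100A9 13.6, 10.1 and 17.6%. The coverage of S100A7 exceeded that of 89.7, 90.3 and 96.03% of all genes in the same lists, and over all genes the median was 5.42, 1.54 and 3.13%. Among genes under 0.1 FPKM in every line the median was higher, at 9, 4.3 and 8.02%. Among genes of at least 1 FPKM in any line it was 3.56, 0.48 and 1.2%. S100A11 had 3.64 to 4.86% of its window covered, and S100A2, S100A4, S100A6, S100A10, S100A14 and S100P had 0 to 1.95%.

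The marked regions at the alarmins lay beside the genes for the most part. They covered 16.9, 16.6 and 77.2% of the S100A7 locus in the same order of lines, and 0% of the S100A8 and S100A9 loci in all 3 lines. The nearest region to the S100A9 start was 4.46 kb away in RWPE1-vector, 5.81 kb in RWPE1-ERG and 6.82 kb in RWPE1-ERG S96E. Enrichment was low, at most 2.59-fold in any window, and 0 of the regions near members had a q-value of 0.01 or below. The lowest q-value was 0.980 in RWPE1-vector, 0.907 in RWPE1-ERG and 0.165 in RWPE1-ERG S96E, so the mark at single regions is uncertain. With equal numbers of regions per list, the share of all the windows covered was 2.86% in RWPE1-vector, 5.14% in RWPE1-ERG and 11.6% in RWPE1-ERG S96E, against 6.91, 5.14 and 11.8% with all regions, so the order of RWPE1-vector and RWPE1-ERG turned with the length of the lists. The series has no H3K27me3 sample of RWPE1-mAKT or RWPE1-ERG/mAKT, the lines where S100A8 and S100A9 were highest.

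**Figure D5:**
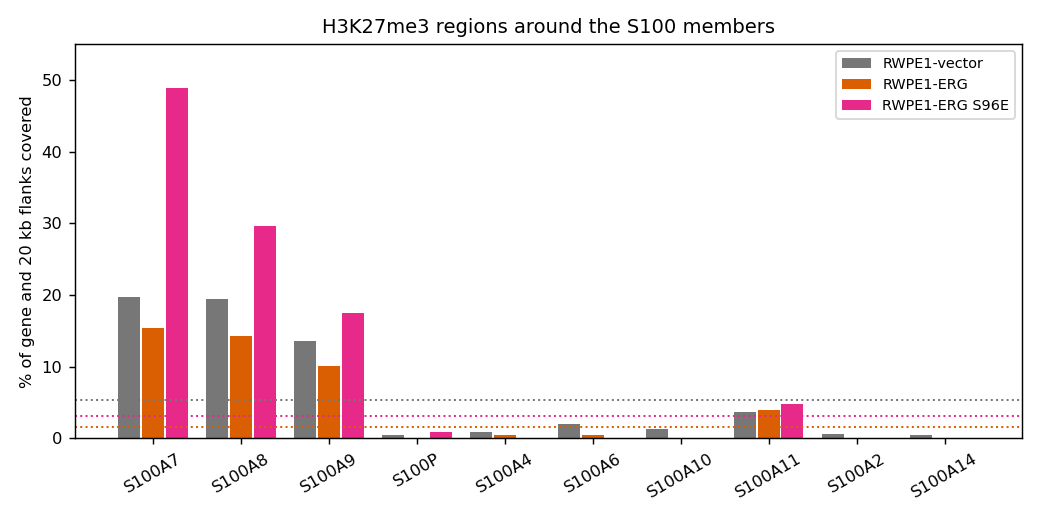
Share of each member's locus and 20 kb flanks covered by H3K27me3 regions (vertical axis, in %), 1 bar per line and 1 library per bar, with dotted lines at the median over all genes in the same list. S100A7, S100A8 and S100A9 stand at 10.1 to 48.8% and the other members at 0 to 4.86%.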

How the data were processed

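RNA-seq libraries were polyA selected, and the authors aligned reads with TopHat2 and deposited a Cuffdiff table of FPKM, pooled over 3 libraries per line, for 6 pairs of lines. Its 5 columns of fold changes, test scores, p-values, q-values and significance calls were not used. Each member's FPKM was the same in every pair. For ChIP-seq the authors pooled DNA from 3 ChIP experiments, mapped reads to hg19 (Bowtie2) and, without duplicates, ran MACS2 with input as control (headers name versions 2.2.7.1 and 2.1.2), and ATAC peaks were called with broad settings after duplicate removal with Picard. The deposited peak lists give a pileup signal, a fold enrichment (a ratio over background) and −log10 p-values and q-values. Lists are scaled within a library, so heights were not compared as amounts.

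Log2 ratios used FPKM + 1, a call means at least 2-fold, and background shares used the 12670 genes of at least 1 FPKM in any line. Windows were the table's locus with 20 kb on each side, an overlap meant at least 1 bp, and share of genes with a peak used 25960 genes on numbered and sex chromosomes. Reads in treatment, where headers give them, were 8393459 to 35688481 per library, and the depth of the RNA-seq libraries is not given in the sources used here. Motifs were searched on both strands. The code was tested on simulated data. Software was Python 3.11.15, pandas 2.3.3, numpy 2.4.6 and matplotlib 3.10.9.

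The members, gene lists and comparisons were chosen with earlier results of these data known. Named genes are all members, further S100 genes of at least 1 FPKM, and the 4 partners with the largest log2 ratio; other genes, such as single markers and genes listed at 0, were named after their values were seen. Peaks named are the nearest to the start and the most enriched per member. Alternatives were other pseudocounts, folds, FPKM limits, scalings, windows and peak limits. Peak lists attached to 2 samples whose labels they do not match, a VCaP input and a VCaP ChIP with LY294002, were not used, and ATAC-seq of the vector line was not analysed here. One marker gene is not reported here.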

Additional observations from a re-analysis of the deposited data

Results flagged for a closer look

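S100A8 is listed because ERG went with opposite directions in the absence and presence of mAKT. RWPE1-ERG was lower than RWPE1-vector by a log2 ratio of -0.84, and RWPE1-ERG/mAKT was higher than RWPE1-mAKT by 3.21, a difference of 4.04 between them. Each line has 1 pooled value, the levels in RWPE1-vector and RWPE1-ERG are low, and the difference was not tested. AKT1 was also higher in RWPE1-ERG/mAKT than in RWPE1-mAKT, so ERG and the AKT1 level cannot be told apart there.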

How the results depend on the processing

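No result changed sign past 2-fold under the alternatives. Of the recomputed member counts and shares of the windows covered, 96 stayed within 1.5 times and 33 did not. The background shares of genes past 2-fold are not among these, and they fell without the limit on FPKM. For example, the higher share went from 3.58 to 1.73% for RWPE1-ERG over RWPE1-vector and from 2.02 to 0.975% for RWPE1-ERG/mAKT over RWPE1-ERG. For RWPE1-ERG over RWPE1-vector, the number of members that were lower went from 0 to 1 (S100A8) with a pseudocount of 0.1, with none, with a fold of 1.5 and with FPKM scaled to the same sum in each line, an alternative chosen after seeing the data. That scaling set the median of all genes at -0.48 for this comparison. It turned the sign of 5 members within 2-fold here (S100A2, S100A9, S100A10, S100A11 and S100A14), of 3 for RWPE1-mAKT over RWPE1-vector, of 2 for RWPE1-ERG/mAKT over RWPE1-vector and of 0 in the other comparisons. For RWPE1-mAKT over RWPE1-vector, members that were higher numbered 2 with a pseudocount of 0.1 and 5 with a fold of 1.5. The 4 higher members in the other comparisons became 3 at the least, without a pseudocount, where S100A7 has no value. In RWPE1-ERG/mAKT, members with an ERG peak numbered 1 in a window of 5 kb (S100A9) and 1 at a q-value of at most 0.01 (S100A11). For VCaP the number was 0 at 5 kb, 2 at 50 kb and 0 at that q-value. ERK2 peaks at q of at most 0.01 lay near 2 members in RWPE1-vector and 2 in RWPE1-ERG, and in RWPE1-vector near 4 members at 5 kb and 3 with equal numbers of peaks. For H3K27me3 the q-value limit left 0 members and 0% of the windows in all 3 lists. A window of 5 kb left 4 members and 3.15% in RWPE1-vector, 2 and 1.94% in RWPE1-ERG, and 2 and 5.31% in RWPE1-ERG S96E. Regions of at least 2-fold enrichment left 4 members and 1.24% in RWPE1-vector, 2.07% in RWPE1-ERG and 3 members in RWPE1-ERG S96E. Equal numbers of regions left 6 members and 2.86% in RWPE1-vector. The causes were not tested beyond the fewer regions these limits leave. No paired analysis was possible because the table holds 1 pooled value per line, and leaving out a replicate was not possible for the same reason.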
